A study of Mus musculus with 8 samples.

Results

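The 10 genes described here encode chemokine ligands that T cells can make, namely *Ccl1*, *Ccl3*, *Ccl4*, *Ccl5*, *Ccl9*, *Ccl17*, *Ccl20*, *Ccl22*, *Cxcl10* and *Xcl1*. They were chosen by gene symbol, though with earlier results of these data known, and all 10 were found among the 23284 genes listed. Messenger RNA was sequenced in 8 libraries from mice of the DO11.10 Tg strain, so every group carried the same transgenic TCR for an OVA peptide. Naive CD4 T cells were spleen cells sorted as CD44low CD62Lhi, and the effector cells had been cultured from such cells for 6 days with OVA peptide and irradiated splenocytes depleted of T cells. Th1 cells received IL-2, IL-12 and anti-IL-4, Th2 cells received IL-2, IL-4 and anti-IFNγ, and Th17 cells were given IL-1β, IL-6 and IL-23 with both antibodies. Each of the 4 groups had 2 libraries. The labels name no cultured control without polarizing cytokines, and nothing says that the libraries of a group came from separate mice or cultures, so the p-values measure the spread between these libraries, which may be technical.

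Chemokines are small secreted proteins that bind receptors with several membrane spans and direct the migration of leukocytes. CC ligands such as CCL3, CCL4 and CCL5 draw monocytes and effector T cells, whereas CCL17 and CCL22 share the receptor CCR4, which marks Th2 cells, Th17 cells and regulatory T cells. The CXC ligand CXCL10 is an interferon-induced ligand of CXCR3, and XCL1, of the small C family, binds XCR1 on cross-presenting dendritic cells.

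The 250 bases before the RefSeq gene start (GRCm38.p6, the coordinates of mm10) are shown 5′ to 3′ on the gene's strand for 3 ligands. *Ccl22* had the highest level of the 10 ligands, *Ccl3* was likewise highest in both Th17 and lowest in both naive libraries, and *Cxcl10* was listed at 0 in Th2 cells. Capitals mark matches to a motif searched on both strands, so that a match on the other strand reads as the reverse complement. In *Ccl3* (chr11:83649379-83649628, minus strand) they mark GGAAA, the core bound by NFAT, a factor of T cell activation, at positions -59 and -34 from the gene start. In *Cxcl10* (chr5:92348890-92349139, minus strand) they mark GGAAA at -214, -158 and -35 and the AP-1 pattern TGANTCA at -74, which do not overlap. *Ccl22* (chr8:94745434-94745683, plus strand) held no match to any of the 4 motifs given here and is in lower case throughout.
Ccl22: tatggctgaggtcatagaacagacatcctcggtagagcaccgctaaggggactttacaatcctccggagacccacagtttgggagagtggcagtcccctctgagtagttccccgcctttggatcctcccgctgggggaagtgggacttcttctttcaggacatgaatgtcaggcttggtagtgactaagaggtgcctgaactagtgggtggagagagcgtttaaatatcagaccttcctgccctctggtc
Ccl3: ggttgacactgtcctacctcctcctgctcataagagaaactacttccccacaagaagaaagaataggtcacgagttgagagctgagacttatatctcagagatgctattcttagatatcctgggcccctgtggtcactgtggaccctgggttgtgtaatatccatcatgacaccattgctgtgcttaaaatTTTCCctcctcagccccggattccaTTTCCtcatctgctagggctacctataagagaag
Cxcl10: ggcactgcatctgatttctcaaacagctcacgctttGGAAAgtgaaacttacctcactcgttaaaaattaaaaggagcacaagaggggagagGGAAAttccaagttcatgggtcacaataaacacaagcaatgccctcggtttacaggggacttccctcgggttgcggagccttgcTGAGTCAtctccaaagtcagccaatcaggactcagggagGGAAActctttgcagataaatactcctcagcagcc

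Of the 10 ligands, 8 had an entry among the 32805 promoters searched, and *Ccl4* and *Ccl5* did not. The share of all promoters with a match was 55.6% for GGAAA, 6.8% for TGANTCA, 12.4% for TATAAA and 3.3% for the T-box pattern GGTGTGA. The NFAT core is thus common in windows of this length, and it matched in 7 of the 8 ligands, all but *Ccl22*. TGANTCA matched in *Cxcl10* and, at -53, in *Ccl9*. TATAAA matched in *Ccl9* alone, at -224, -94 and -92, the last 2 of which overlap, and GGTGTGA matched in *Ccl20* and *Xcl1*. These matches describe letters and not bound sites.

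The values are FPKM, in which the fragment number of a gene is divided by exon length and library depth, so levels of different genes can be set side by side. The deposited confidence intervals implied 14097783 to 21055083 fragments a library, with both naive libraries the shallowest, and no ligand had a failed estimate in any library. The T cell genes *Cd3d*, *Cd3e*, *Cd3g*, *Cd4*, *Lck* and *Thy1* summed to 1610 to 2564 FPKM in all libraries. The Th1 genes *Tbx21* and *Ifng* summed to 665 to 847 FPKM in Th1 cells and at most 3.85 elsewhere, the Th2 genes *Gata3*, *Il4* and *Il13* to 373 to 406 in Th2 cells and at most 26.2 elsewhere, and the Th17 genes *Il17a* and *Il17f* to 1326 to 1348 in Th17 cells and at most 1.72 elsewhere. The libraries thus matched their labels.

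Summed over the 10 ligands, the FPKM was 3.55 and 4.82 in naive cells, 23.4 and 22.7 in Th1 cells, 13.1 and 13.1 in Th2 cells, and 80.6 and 75.9 in Th17 cells. The sum was thus lowest in naive cells and highest in Th17 cells, with no overlap between the groups. *Ccl5* made up 56.6% and 52.9% of the sum in naive cells and 35.8% and 57.5% in Th1 cells. *Ccl22* took the largest share in Th2 cells, at 33.4% and 37.2%, and in Th17 cells, at 55.7% and 60.2%. *Ccl4* came next to *Ccl5* in Th1 cells, at 32.1% and 19.1%. In these bulk libraries fewer cells that make a ligand and less of its RNA per cell cannot be told apart.

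**Figure D1:**
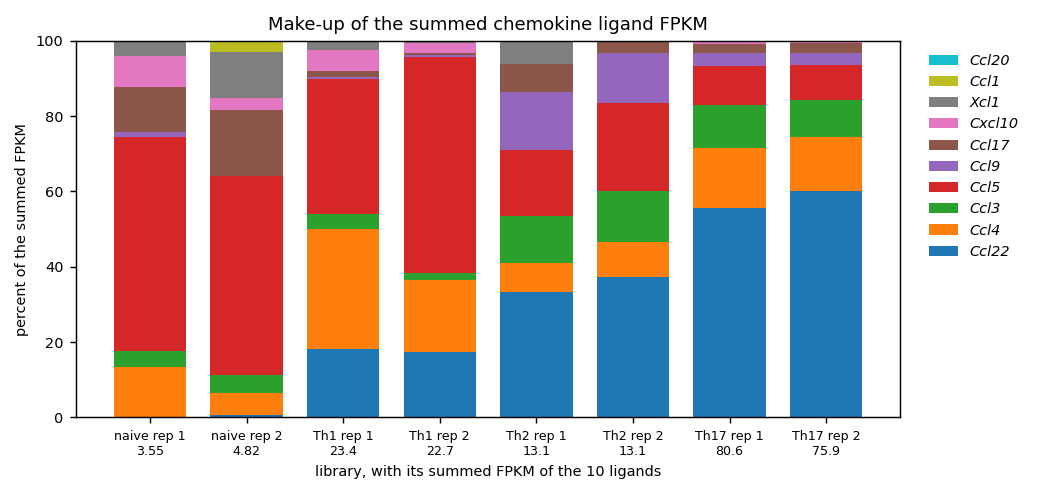
Make-up of the summed chemokine ligand FPKM in each library. The horizontal axis gives the 8 libraries with their summed FPKM of the 10 ligands, and the stacked bars give each ligand's percent of that sum. *Ccl5* fills over 52% of both naive bars, and *Ccl22* over 55% of both Th17 bars.

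**Figure D2:**
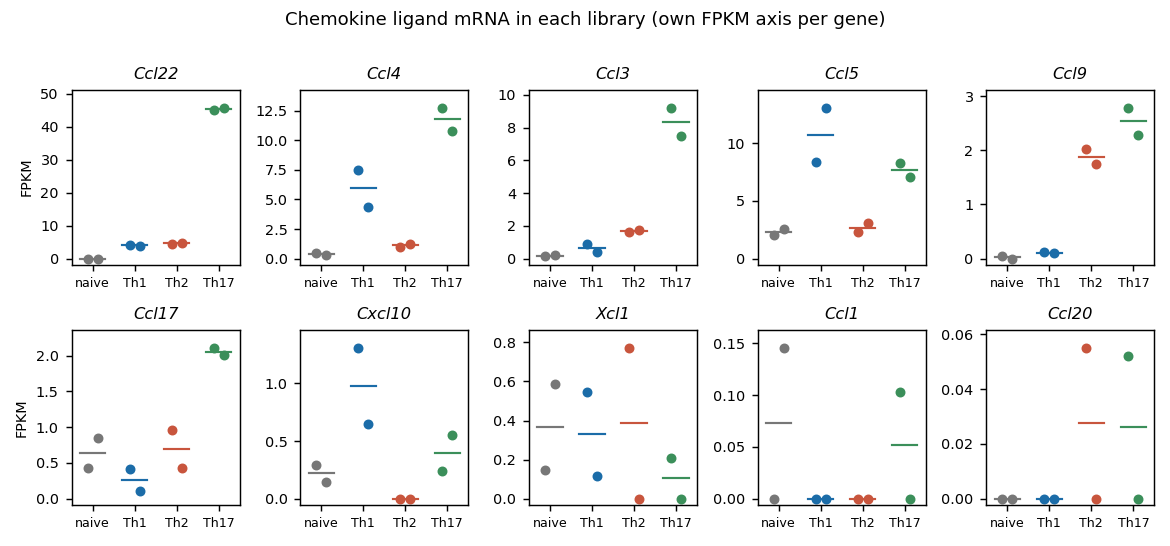
FPKM of each chemokine ligand in each library, with a separate linear axis for each gene. Points are libraries, 2 in each group, and lines are group means. *Ccl22*, *Ccl4*, *Ccl3*, *Ccl9* and *Ccl17* are highest in both Th17 libraries, and *Ccl5* and *Cxcl10* in both Th1 libraries, whereas *Xcl1*, *Ccl1* and *Ccl20* stay below 0.78.

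*Ccl22*, which encodes a CCR4 ligand known from activated dendritic cells, macrophages and T cells, lies on chromosome 8 from 94745684 to 94751388 (plus strand, 3 exons). Its FPKM was 0 and 0.0273 in naive cells, 4.23 and 3.94 in Th1 cells, 4.38 and 4.85 in Th2 cells, and 44.9 and 45.7 in Th17 cells. Every effector library was above both naive libraries, and both Th17 libraries were far above all others. On the log2(FPKM + 1) scale, *Ccl22* was higher than in naive cells by 2.33 in Th1 (adjusted p = 1.28e-06), 2.47 in Th2 (adjusted p = 8.21e-07) and 5.51 in Th17 (adjusted p = 1.09e-07), each with a standard error of 0.09 (limma, Benjamini-Hochberg adjustment over the 11198 genes tested, as for all adjusted p-values given here). The naive libraries together held 1 implied fragment, so the size of these differences depends on the pseudocount, and with a pseudocount of 0.1 that of Th17 cells reached 8.65.

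Between the subsets, the *Ccl22* mean in Th17 cells was 9.81 times that in Th2 cells, a log2 difference of 3.04 ± 0.09 (SE, adjusted p = 4.5e-06). Th1 cells were below Th17 cells by -3.19 ± 0.09 (SE, adjusted p = 4.35e-06). The difference between Th1 and Th2 cells was -0.14 with a 95% confidence interval of -0.36 to 0.07 (adjusted p = 0.235), and did not pass the threshold of 0.05. The order was therefore Th17 first and naive last, with Th2 and Th1 as neighbours that did not differ beyond their spread. In Th17 cells the mean of 45.3 ± 0.56 FPKM (SD, n = 2) was above that of 92.8% of all genes listed, whereas in Th1 and Th2 cells *Ccl22* was above 63.5% and 65.4%.

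*Ccl17*, whose product binds the same receptor CCR4, lies further along the same chromosome 8, from 94810453 to 94812036 (plus strand). Its FPKM was 0.424 and 0.848 in naive cells, 0.421 and 0.110 in Th1 cells, 0.954 and 0.428 in Th2 cells, and 2.11 and 2.00 in Th17 cells. Both Th17 libraries were above the other 6, while the naive and Th2 libraries overlapped. Its mean over the 8 libraries was 0.912 FPKM, under the filter of 1, so it was not among the genes tested. With the filter set to an FPKM of at least 1 in 2 or more libraries, Th17 cells were higher than naive cells by 0.91 (adjusted p = 0.00485) and than Th2 cells by 0.87 (adjusted p = 0.0114), and Th1 cells were lower than Th17 cells by -1.28 (adjusted p = 0.00313). With no filter the second of these differences did not pass (adjusted p = 0.0587). Only the Th17 libraries held *Ccl17* at 1 FPKM or more, so it entered under the replaced filter through them alone. The calls made with that filter are therefore not independent of its Th17 level. They also rest on few implied fragments, 21 and 15 for the Th17 libraries and no more than 9 for any other library.

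*Ccl3*, *Ccl4*, *Ccl5* and *Ccl9* lie together on chromosome 11, between 83525779 and 83664683. *Ccl3* (83647843 to 83649378, minus strand) encodes an inflammatory ligand of CCR1. Its FPKM was 0.149 and 0.225 in naive cells, 0.889 and 0.408 in Th1 cells, 1.62 and 1.76 in Th2 cells, and 9.22 and 7.49 in Th17 cells. The groups did not overlap, and their order was naive, Th1, Th2 and Th17. Th17 cells were higher than naive cells by a log2(FPKM + 1) difference of 2.97 ± 0.17 (SE, adjusted p = 6.5e-06) and Th2 cells by 1.18 ± 0.17 (SE, adjusted p = 0.00062). With a pseudocount of 0.1 these differences were 4.89 and 2.65, and with quantile normalization that of Th2 cells was 0.46 (adjusted p = 0.0435).

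The *Ccl3* mean in Th17 cells was 4.95 times that in Th2 cells, a log2 difference of 1.79 ± 0.17 (SE, adjusted p = 0.000363), and Th1 cells were lower than Th17 cells by -2.51 ± 0.17 (SE, adjusted p = 9.52e-05). The Th1 level was also below the Th2 level, by -0.72 (adjusted p = 0.0128), a call lost without Th1 replicate 2 (adjusted p = 0.0592) or Th2 replicate 2 (adjusted p = 0.0683, with 0.00858 to 0.0683 over all alternatives). Th1 and naive cells differed by 0.46 (adjusted p = 0.0442). This call rests on 16 and 7 implied fragments in the Th1 libraries. It was lost with no filter (adjusted p = 0.12), with quantile normalization (adjusted p = 0.144), with only the 2 groups fitted (adjusted p = 0.0632), and when naive replicate 1 (adjusted p = 0.138) or 2 (adjusted p = 0.0845), Th1 replicate 1 (difference 0.25, adjusted p = 0.219), or Th2 replicate 1 (adjusted p = 0.0647) or 2 (adjusted p = 0.0644) was left out. Over all alternatives its adjusted p was 0.0108 to 0.219.

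*Ccl4* (83662584 to 83664683, plus strand) encodes an inflammatory ligand often made together with CCL3. Its FPKM was 0.480 and 0.288 in naive cells, 7.50 and 4.35 in Th1 cells, 1.01 and 1.24 in Th2 cells, and 12.7 and 10.8 in Th17 cells. The groups did not overlap, but their order differed from that of *Ccl3*, with Th1 above Th2. *Ccl4* was higher than in naive cells by 2.29 ± 0.22 in Th1 (SE, adjusted p = 0.000102) and by 3.21 ± 0.22 in Th17 (SE, adjusted p = 1.71e-05). Th2 and naive cells differed by 0.62 (adjusted p = 0.0392), a call lost with no filter (adjusted p = 0.133) and quantile normalization (adjusted p = 0.623) and without naive replicate 1 (adjusted p = 0.0668) or 2 (adjusted p = 0.156), Th2 replicate 1 (adjusted p = 0.0849) or 2 (adjusted p = 0.16), or Th17 replicate 1 (adjusted p = 0.0576) or 2 (adjusted p = 0.0577). Over all alternatives the adjusted p of this difference was 0.00547 to 0.623.

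Among the subsets, the *Ccl4* mean in Th1 cells was 5.28 times that in Th2 cells, a log2 difference of 1.67 ± 0.22 (SE, adjusted p = 0.00118). The mean in Th17 cells was 10.5 times that in Th2 cells (log2 difference 2.59 ± 0.22, SE, adjusted p = 0.000253). Th1 cells were lower than Th17 cells by -0.92 (adjusted p = 0.0235). That call was lost with a pseudocount of 0.1 (adjusted p = 0.0505), no filter (adjusted p = 0.09) or only the 2 groups fitted (adjusted p = 0.078), and without Th1 replicate 2 (difference -0.58, adjusted p = 0.075), Th17 replicate 1 (adjusted p = 0.123) or Th17 replicate 2 (adjusted p = 0.072), the range over all alternatives being 0.0062 to 0.123. RefSeq also starts a *Ccl4* transcript at 83648624, inside the opposite-strand gene *Ccl3*. The kit named in the methods does not keep strand and that in the labels does, so reads in this overlap could belong to either gene.

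*Ccl5* (83525779 to 83530518, minus strand) encodes a ligand of CCR1 and CCR3 known from memory and cytotoxic T cells. Its FPKM was 2.01 and 2.55 in naive cells, 8.38 and 13.1 in Th1 cells, 2.31 and 3.04 in Th2 cells, and 8.28 and 7.08 in Th17 cells. It was the one ligand of the 10 above 1 FPKM in both naive libraries. Naive and Th2 libraries overlapped, and both lay below all Th1 and Th17 libraries.

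*Ccl5* was higher than in naive cells by a log2(FPKM + 1) difference of 1.81 ± 0.21 in Th1 (SE, adjusted p = 0.000257) and 1.41 ± 0.21 in Th17 (SE, adjusted p = 0.00089). In Th2 cells the difference from naive cells was 0.16, with a 95% confidence interval of -0.34 to 0.66 (adjusted p = 0.515), which did not pass. The mean in Th1 cells was 4.0 times that in Th2 cells (log2 difference 1.65 ± 0.21, SE, adjusted p = 0.00103), and the mean in Th17 cells was 2.87 times that in Th2 cells (1.24 ± 0.21, SE, adjusted p = 0.00406). Both Th1 libraries were above both Th17 libraries, but the difference of 0.41 (95% confidence interval -0.09 to 0.91, adjusted p = 0.219) did not exceed their spread. The Th1 replicates themselves were 10.7 ± 3.31 FPKM (SD, n = 2).

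*Ccl9* (83572917 to 83578636, minus strand, 4 exons) encodes a CCR1 ligand known mainly from myeloid cells. Its FPKM was 0.0467 and 0 in naive cells, 0.128 and 0.0976 in Th1 cells, 2.02 and 1.74 in Th2 cells, and 2.79 and 2.29 in Th17 cells. The Th2 and Th17 libraries all lay above 1.7 and the naive and Th1 libraries all below 0.13. *Ccl9* was higher than in naive cells by 1.49 ± 0.12 in Th2 (SE, adjusted p = 3.93e-05) and 1.79 ± 0.12 in Th17 (SE, adjusted p = 1.71e-05).

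The difference of *Ccl9* between Th1 and naive cells, 0.12, did not pass (adjusted p = 0.41), nor did that between Th17 and Th2 cells, 0.30 (95% confidence interval 0.00 to 0.59, adjusted p = 0.0925). The Th1 level was below the Th2 level by -1.37 ± 0.12 (SE, adjusted p = 0.0002) and below the Th17 level by -1.67 ± 0.12 (SE, adjusted p = 0.000147). With a pseudocount of 0.1 the differences of *Ccl9* from naive cells grew to 4.03 in Th2 cells and 4.44 in Th17 cells, since it is near 0 in naive cells. Of the 50-base words in its transcripts, 1.97% also occur in other genes. Like *Ccl3*, *Ccl9* thus split the subsets with Th1 lowest, whereas *Ccl4* and *Ccl5* had Th2 lowest.

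**Figure D3:**
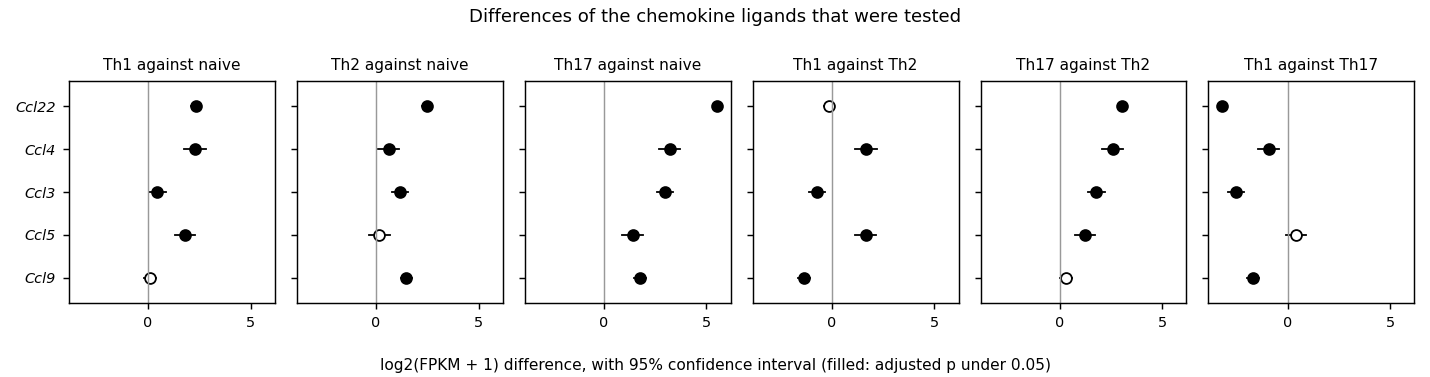
Differences of the 5 chemokine ligands that passed the filter on low values, in each of the 6 comparisons. The horizontal axes give the log2(FPKM + 1) difference, first-named group minus second, with its 95% confidence interval, and filled points have an adjusted p under 0.05 (limma). *Ccl22* reaches 5.51 in Th17 against naive cells, and *Ccl4* and *Ccl5* lie right of 0 in Th1 against Th2 cells while *Ccl3* and *Ccl9* lie left of it.

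The remaining ligands were at low levels and were not among the genes tested. *Cxcl10* (chromosome 5, 92346639 to 92348889, minus strand) had an FPKM of 0.293 and 0.147 in naive cells, 1.31 and 0.649 in Th1 cells, 0 and 0 in Th2 cells, and 0.242 and 0.555 in Th17 cells. Both Th1 libraries were above all others, with 36 and 17 implied fragments, and both Th2 libraries were listed at 0. With no filter on low values the difference between Th1 and Th2 cells was 0.96 (adjusted p = 0.0312) and that between Th1 and naive cells was 0.68 (adjusted p = 0.0576). Of the 50-base words of *Cxcl10*, 3.59% also occur in *Art3*.

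*Xcl1* (chromosome 1, 164931648 to 164935510, minus strand) had an FPKM of 0.147 and 0.588 in naive cells, 0.547 and 0.115 in Th1 cells, 0.772 and 0 in Th2 cells, and 0.209 and 0 in Th17 cells. All 4 groups overlapped, and no order could be read at this depth. Of the 50-base words of *Xcl1*, 10.8% also occur in *Gm20743*. *Ccl1*, whose product binds CCR8 (chromosome 11, 82176666 to 82179812, minus strand), had 1 implied fragment in naive replicate 2, 1 in Th17 replicate 1 and 0 in the other libraries. *Ccl20*, whose product binds CCR6 (chromosome 1, 83116766 to 83119167, plus strand), was listed at 0 in 6 libraries and at no more than 0.0551 FPKM in Th2 replicate 1 and Th17 replicate 1. Neither was detectable above single fragments at this depth.

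Against naive cells, which all 3 comparisons share, 4 of the 5 ligands tested were higher in Th1 cells (33.8% of all tested genes), 4 in Th2 cells (31.8%) and 5 in Th17 cells (37.5%). None was lower, beside 33.5%, 38.7% and 29.8% of all tested genes. The other 5 ligands did not pass the filter, and the 5 that did could pass through the subset where they are high, so these counts describe the tested ligands and not the family. Over all 10 ligands, both effector libraries lay above both naive libraries for 6 in Th1 cells, 4 in Th2 cells and 6 in Th17 cells, beside 26.9%, 26.3% and 32% of all genes. They lay below for *Ccl17* in Th1 and *Cxcl10* in Th2 and for no ligand in Th17, beside 26.4%, 28.5% and 23.5%. The median log2 difference over the 10 ligands was 0.29 in Th1 cells, 0.10 in Th2 cells and 1.16 in Th17 cells, and that over all genes listed was 0 in each.

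Between the subsets, Th17 cells were higher than Th2 cells for 4 of the 5 tested ligands and lower for none, beside 31.7% and 12% of all tested genes. Th1 cells were higher than Th2 cells for 2 (*Ccl4* and *Ccl5*) and lower for 2 (*Ccl3* and *Ccl9*), beside 27.4% and 16.9%. Th1 cells were lower than Th17 cells for 4 and higher for none, beside 16% and 9.17%. Since a ligand could pass the filter through the subset where it is high, these counts too describe the tested ligands alone. *Ccl3*, for example, had a mean of 8.35 FPKM in Th17 cells and of 0.187, 0.649 and 1.69 in naive, Th1 and Th2 cells. Over the 10 ligands, both Th17 libraries were above both Th2 libraries for 7 and below for none, beside 34% and 15.4% of all genes. Both Th1 libraries were above both Th2 libraries for 3 and below for 4, beside 27.1% and 20.9%, and were above both Th17 libraries for 2 and below for 5, beside 14.1% and 28.9%. The median difference over the 10 ligands was 0.67 for Th17 against Th2, -0.03 for Th1 against Th2 and -0.49 for Th1 against Th17. Over all genes listed it was 0 in each, and over the tested genes it was 0.18, 0.11 and -0.08.

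Scaling the libraries in another way shifted these backgrounds. Quantile normalization moved the median of all tested genes from -0.01 to -0.13 for Th1 against naive and from 0.08 to -0.12 for Th17 against naive cells. Of the genes called between Th17 and naive cells 55.7% were higher, against 44.2% after quantile normalization. Between Th17 and Th2 cells 72.6% of calls were higher in Th17, against 53.3% with median scaling and 50.7% with quantile normalization. Between Th1 and Th17 cells 36.5% were higher in Th1, against 48.1% and 49.7%, and between Th1 and Th2 cells 61.8%, against 50.9% with quantile normalization. For the ligands, quantile normalization turned the sign of the low differences of *Ccl3* and *Ccl9* between Th1 and naive cells and of *Ccl4* and *Ccl5* between Th2 and naive cells, none of which passed the threshold there.

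Other cells of the spleen or the cultures also make several of these ligands, so their marker genes were set beside them. The B cell genes *Ms4a1*, *Cd79a*, *Cd79b*, *Pax5*, *Ebf1* and *Cd22* summed to 6.39 to 7.80 FPKM in naive cells, 2.27 to 3.09 in Th1 cells, 7.31 to 10.1 in Th2 and 17.3 to 18.1 in Th17 cells. Like *Ccl22* and *Ccl3*, this sum was highest in Th17 cells, and it was lowest in Th1 cells. Of the 3 that were tested, 2 were higher in Th17 than in naive cells and 1 than in Th2 cells, beside 37.5% and 31.7% of all tested genes. The Th17 sum rests much on *Ebf1*, with 8.04 and 8.56 FPKM there. *Cd79a* did not pass between Th17 and naive cells (0.05, adjusted p = 0.798, limma), nor *Cd79b* between Th17 and Th2 cells (0.08, adjusted p = 0.715, limma). *Pax5* and *Cd22* were highest in both Th17 libraries, whereas *Ms4a1* had its highest mean in Th2 cells. The dendritic cell genes *Flt3*, *Zbtb46*, *Clec9a*, *Siglech*, *Itgax* and *Cd209a* summed to 0.760 to 0.952 FPKM in naive cells, 0.335 to 0.516 in Th1 cells, 2.70 to 2.81 in Th2 and 3.81 to 3.87 in Th17 cells. Of these, *Clec9a* and *Siglech* were at or under 0.0454 FPKM in every library, and *Itgax*, the one member tested, had 2.27 and 2.25 FPKM in Th2 and 1.65 and 1.59 in Th17 cells. Like *Ccl22* and *Ccl3*, *Flt3* and *Zbtb46* were highest in both Th17 libraries, *Flt3* with 1.40 and 1.34 FPKM there and at most 0.198 elsewhere, and *Zbtb46* with 0.80 and 0.832 there and at most 0.35 elsewhere. The MHC class II genes *H2-Aa*, *H2-Ab1*, *H2-Eb1*, *Cd74* and *Ciita* summed to 78.4 to 84.0 FPKM in naive cells, 60.5 to 66.3 in Th1 cells, 132 to 152 in Th2 and 124 to 142 in Th17. This sum rests much on *H2-Ab1*, whose mean was 11.3 FPKM in naive cells against 47.5 for Th1, 98.8 for Th2 and 64.4 for Th17. Of the 4 members tested, *H2-Ab1* alone was higher in Th2 than in naive cells and 2 were lower, beside 31.8% and 38.7% of all tested genes. *Cd74* was among the lower ones, with means of 23.0 and 43.5 FPKM. Against naive cells, *H2-Ab1* alone was higher in Th17 cells, with none lower, beside 37.5% and 29.8%.

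The macrophage and monocyte genes *Emr1*, *Csf1r*, *Cd68*, *Lyz2*, *Cd14*, *C1qa* and *C1qb* summed to 31.4 to 35.9 FPKM in naive cells, 12.2 to 13.7 in Th1 cells, 30.6 to 34.1 in Th2 and 22.7 to 23.7 in Th17 cells. Genes of this list moved in different directions. *C1qa* and *C1qb* were at or under 0.152 FPKM in every effector library. *Cd14* was higher than in naive cells in Th1 (1.49, adjusted p = 9.17e-05) and Th17 (1.93, adjusted p = 2.27e-05), with 4.41 and 3.75 FPKM in Th17 cells. *Emr1* (1.70, adjusted p = 3.35e-05) and *Lyz2* (1.10, adjusted p = 0.00282) were higher in Th2 than in naive cells, with 4.63 and 5.88 FPKM for *Emr1* and 19.9 and 11.7 for *Lyz2* in Th2 cells. The natural killer cell genes *Ncr1*, *Klrb1c* and *Klre1* summed to at most 1.33 FPKM in any library, and *Ncr1* was at 0 in every effector library. The CD8 T cell gene *Cd8a* was at most 2.94 FPKM in naive cells and 0.268 in effector cells, and *Cd8b1* was at 52.8 to 90.5 FPKM in naive cells and 8.77 to 12.9 in effector cells. The neutrophil genes *S100a8*, *S100a9*, *Mpo* and *Elane* summed to 6.52 to 7.65 FPKM in replicate 1 of each effector group and to at most 0.546 in replicate 2, mostly through *Mpo* and *Elane*. The Th2 and Th17 libraries had higher sums over the B cell, dendritic cell and MHC class II lists than the Th1 libraries. *Ccl3* and *Ccl9* were likewise higher there than in Th1 cells, and *Ccl22* in Th17 cells alone. Against naive cells, *Ccl22* was higher in Th1 cells too (2.33, adjusted p = 1.28e-06, limma). So was *Ccl3* (0.46, adjusted p = 0.0442, limma), a call lost under several alternatives and with its sign turned by quantile normalization (-0.31). The sums of the B cell, dendritic cell and MHC class II lists were lower in the Th1 than in the naive libraries. *H2-Ab1* of the MHC class II list went the other way, with means of 47.5 FPKM in Th1 and 11.3 in naive cells. The part of such other cells in the results was not tested.

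The receptors that bind these ligands were described from a list of 7 genes, of which 6 were tested. They were higher than in naive cells for 4 and lower for 2 in Th1, higher for 3 and lower for 2 in Th2 cells, and higher for 6 in Th17 cells. The background over every tested gene was 33.8% higher for Th1, 31.8% for Th2 and 37.5% for Th17, with 33.5%, 38.7% and 29.8% lower. A receptor could pass the filter through the group where it is high. *Ccr6* and *Ccr3* did so through Th17 cells, their means in the other groups being under 1 FPKM. The receptor counts therefore describe the tested receptors alone. *Ccr4*, the receptor of CCL17 and CCL22, had an FPKM of 0.963 and 1.78 in naive cells, 34.6 and 32.8 in Th1 cells, 80.9 and 78.0 in Th2 cells, and 89.8 and 85.3 in Th17 cells. Th1 cells were below Th2 cells in *Ccr4* by -1.21 ± 0.16 (SE, adjusted p = 0.00118), and Th17 and Th2 cells differed by 0.14 (95% confidence interval -0.24 to 0.52, adjusted p = 0.518), which did not pass. Between the same subsets *Ccl22* differed by 3.04.

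*Ccr1*, which binds CCL3, CCL5 and CCL9, had an FPKM of 0 and 0.0334 in naive cells, 3.63 and 3.05 in Th1 cells, 6.73 and 4.03 in Th2 cells, and 7.68 and 7.49 in Th17 cells. *Ccr3*, the eosinophil receptor that CCL5 also binds, had 1.07 and 0.815 FPKM in naive cells, 0.116 and 0.10 in Th1 cells, 1.13 and 0.779 in Th2 cells, and 3.46 and 3.58 in Th17 cells. Both were higher in Th17 than in naive cells, by 3.08 ± 0.20 (SE, adjusted p = 1.16e-05) and 1.22 ± 0.13 (SE, adjusted p = 0.000162).

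*Ccr8*, the receptor of CCL1, had an FPKM of 0.0918 and 0.369 in naive cells, 0.991 and 1.94 in Th1 cells, 18.6 and 11.8 in Th2 cells, and 4.27 and 7.18 in Th17, highest in both Th2 libraries. *Ccr6*, the receptor of CCL20, had 0.429 and 1.15 FPKM in naive cells, 0.160 and 0.192 in Th1 cells, 0.170 and 0.163 in Th2 cells, and 6.71 and 8.54 in Th17, highest in both Th17 libraries. Both receptors were thus measured in subsets whose libraries held at most 1 implied fragment of the ligand.

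*Cxcr3*, the receptor of CXCL10, had an FPKM of 1.55 and 3.41 in naive cells, 8.01 and 9.35 in Th1 cells, 0.256 and 0.142 in Th2 cells, and 11.3 and 11.5 in Th17 cells. It was lowest in Th2 cells, where *Cxcl10* was listed at 0, and the Th1 and Th17 values differed by -0.36 (95% confidence interval -0.93 to 0.20, adjusted p = 0.331), which did not pass. *Xcr1*, the receptor of XCL1, was not tested and was at 0.844 and 0.902 FPKM in Th1 cells and at most 0.117 elsewhere. The 5 atypical receptors listed, which do not signal to migrate, were all under the filter, with *Ccrl2* the highest at 1.64 and 1.76 FPKM in Th1 cells.

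**Figure D4:**
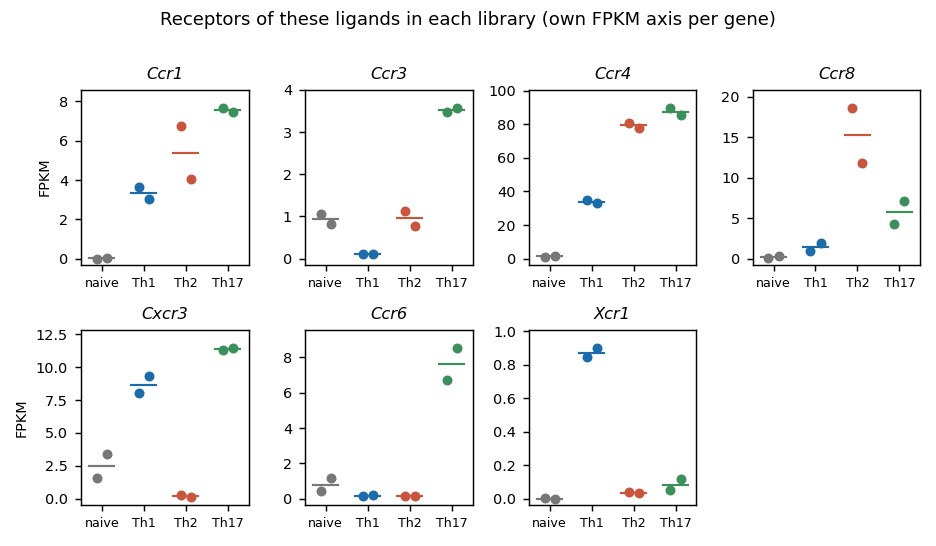
FPKM of 7 receptors of these ligands in each library, with a separate linear axis for each gene. Points are libraries, 2 in each group, and lines are group means. *Xcr1* is highest in both Th1 libraries, *Ccr8* in both Th2 libraries, and *Ccr6* and *Ccr3* in both Th17 libraries.

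For each tested ligand, the genes with the most similar pattern were ranked by the root mean square difference of their centred log2(FPKM + 1) values over the 8 libraries, which share the group structure. *Csf2rb*, the common receptor chain for IL-3, IL-5 and GM-CSF, was nearest to *Ccl9*, at a distance of 0.15 (r = 0.99), with group means of 0.146 FPKM in naive, 0.468 in Th1 cells, 2.98 in Th2 and 3.83 in Th17 cells. *Ptrf* (0.17) and *Gm16894* (0.19) came next. Nearest to *Ccl22* were the integrin gene *Itga3* at 0.30, the uridine phosphorylase gene *Upp1* at 0.32 and *Slc15a3* at 0.39, with Th17 means of 96.2, 68.0 and 26.5 FPKM. Nearest to *Ccl3* were *B3gnt8* at 0.19, the B cell factor gene *Ebf1* at 0.20 and *Sh3pxd2b* at 0.21.

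Nearest to *Ccl4* were *Selp* at 0.28, which encodes P-selectin, *Lrrc49* at 0.28 and *Hmgn3* at 0.30. Nearest to *Ccl5* were *Arhgap26* at 0.18, *Rhbdf2* at 0.19 and *Pnp2* at 0.20. The *Rhbdf2* means had the order of *Ccl5*, with 24.3 FPKM in Th1 cells, 15.7 in Th17, 6.79 in Th2 and 6.46 in naive cells. No gene stood near more than 1 of the 5 ligands in these lists.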

How the data were processed

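Messenger RNA of naive and of in vitro differentiated Th1, Th2 and Th17 cells was sequenced. According to the methods and the submitters' processing notes, the authors aligned reads to mm10 with Bowtie 0.12.8 and TopHat 1.3.2, computed FPKM per gene with Cufflinks 2.0.2 and deposited it per library beside a confidence interval and a status. The gene annotation is not given in the sources used here, and no counts were used. Starts in the files were 1 less than those of RefSeq for 56.2% of 20479 genes and equal for 3.4%, so 1 was added. Fragment numbers were implied from the confidence intervals and cover counting error only. FPKM was summed per symbol, which gave 23284 genes, and log2(FPKM + 1) was fitted for 11198 genes (mean FPKM of 1 or more) in 1 limma model of the 4 group means (limma 3.58.1, R 4.3.3, mean-variance trend, two-sided, Benjamini-Hochberg adjustment over all genes tested, threshold 0.05). The model was tested on simulated data. A log2(FPKM + 1) difference understates the change of genes with low FPKM. Named were all 10 ligands, other chemokine ligands with a mean FPKM of at least 1, receptors of the ligands, cell type markers, and the 3 tested genes most similar to each tested ligand. Some genes of these lists are not reported here. *Cxcl13*, *Cxcl11* and *Ppbp* were named after their values were seen. Members and lists were chosen with earlier results of these data known. As alternatives, the pseudocount was set to 0.1, the filter was dropped or replaced, libraries were scaled by their medians or quantiles, 2 groups were fitted alone, the trend was omitted, the replicate number entered as a block, the highest row stood for each symbol, and each library was left out. Python 3.11.15, pandas 2.3.3, numpy 2.4.6 and matplotlib 3.10.9 were used for tables and plots.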

Additional observations from a re-analysis of the deposited data

Results flagged for a closer look

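The 5 tested ligands drew attention because a difference between effector subsets passed the test for each (limma, Benjamini-Hochberg adjustment, n = 2 libraries in each group). Such calls were common among all tested genes. Their share was 44.3% for Th1 against Th2, 43.6% for Th17 against Th2 and 25.1% for Th1 against Th17 cells. The share of genes called in any of these comparisons cannot be lower than 44.3% and was not computed. A ligand could also enter the test through the subset where it is high. For *Ccl22* the Th1 level was -3.188 below the Th17 level on the log2(FPKM + 1) scale (adjusted p = 4.35e-06). For *Ccl3* it was -2.514 below (adjusted p = 9.52e-05) and for *Ccl9* -1.666 below (adjusted p = 0.000147). For *Ccl4* the Th17 level was 2.587 above the Th2 level (adjusted p = 0.000253), and for *Ccl5* the Th1 level was 1.65 above it (adjusted p = 0.00103). In each case both libraries of one subset lay above both of the other. The largest passing difference of each ligand was picked here, so this separation was largely fixed by that choice. By comparison and direction, 14.1% to 34% of all genes listed were separated in this way. Groups of 2 libraries are too small to test a single library for standing apart.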

How the results depend on the processing

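Single differences of the 5 tested ligands in the 6 comparisons were recomputed 270 times under the settings other than a left-out library, and 260 kept their direction and side of the threshold, 6 lost the call and 4 reversed. With a library left out, 224 of 240 did so, 16 lost the call and 0 reversed. Such a fit leaves 1 library in a group, which is assumed to vary like those of the other groups. The 4 reversals came with quantile normalization, where Th1 against naive cells was -0.31 for *Ccl3* (adjusted p = 0.144) and -0.20 for *Ccl9* (adjusted p = 0.426), and Th2 against naive cells was -0.14 for *Ccl4* (adjusted p = 0.623) and -0.10 for *Ccl5* (adjusted p = 0.68). The cause was not tested. The lost calls belong to *Ccl3* in Th1 against naive and Th1 against Th2 cells and to *Ccl4* in Th2 against naive and Th1 against Th17 cells. The calls lost with a library left out were all among these, and no difference changed its sign there. *Ccl22*, *Ccl5* and *Ccl9* kept the calls that they made under all settings run, with that assumption for the left-out libraries.

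Nothing says that libraries of the same replicate number share mice or cultures, and each comparison has 2 pairs. The replicate differences of the groups correlated at 0.138 to 0.294. Under the replicate block the ligands called were 4, 4 and 5 against naive cells and 4 in each comparison between subsets, as without it, and the block changed no call. Over all tested genes, the share called under the block was 73.9%, 76.5% and 73.5% against naive cells for Th1, Th2 and Th17. It was 53.4% for Th1 against Th2 and 53.3% for Th17 against Th2 cells. Between Th1 and Th17 cells it went from 25.1% to 33.1%. Depth limits *Ccl1*, *Ccl20* and *Xcl1*, with at most 7 implied fragments in a library, and 2 libraries a group give a rough SD.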

Other observations

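Of 27 other chemokine ligands listed, 6 were tested. They were higher than in naive cells for 2 and lower for 2 in Th1, higher for 4 and lower for 1 in Th2 cells, and higher for 4 and lower for 2 in Th17 cells. The background over every tested gene was 33.8%, 31.8% and 37.5% higher, and 33.5%, 38.7% and 29.8% lower, for these subsets in turn. These ligands too could pass the filter through the group where they are high. *Ccl24* did so through Th2, *Cxcl2* through Th17 and *Ccl25* through naive cells, each with means under 1 FPKM in the other groups. The counts therefore describe the tested ligands alone. *Ccl24*, which encodes an eosinophil attractant binding CCR3, had an FPKM of 0.724 and 0.607 in naive cells, 0 and 0 in Th1 cells, 8.78 and 7.89 in Th2 cells, and 0.229 and 0.191 in Th17 cells. Both Th2 libraries were above all others, and Th2 cells were higher than naive cells by 2.49 ± 0.11 (SE, adjusted p = 1.86e-06) and Th17 cells lower than Th2 cells by -2.95 ± 0.11 (SE, adjusted p = 7.84e-06, limma, Benjamini-Hochberg adjustment). The neutrophil attractants *Cxcl3* and *Cxcl2* had their highest values in Th17 cells. *Cxcl3* was listed at 0 in both naive libraries and had an FPKM of 1.09 and 0.803 in Th1 cells, 2.29 and 1.21 in Th2 cells, and 13.5 and 11.3 in Th17 cells. *Cxcl2* was listed at 0 in both naive libraries and had 0.407 and 0.233 FPKM in Th1 cells, 0.317 and 0.0944 in Th2 cells, and 5.12 and 4.66 in Th17 cells. Th17 cells were higher than Th2 cells by 2.31 ± 0.20 for *Cxcl3* (SE, adjusted p = 0.000264) and 2.29 ± 0.14 for *Cxcl2* (SE, adjusted p = 6.33e-05).

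*Pf4*, known from platelets and their precursors, had an FPKM of 0 and 0.114 in naive cells, 0.170 and 0.356 in Th1 cells, 7.69 and 4.32 in Th2 cells, and 5.83 and 4.96 in Th17 cells. *Ppbp*, a platelet chemokine gene under the filter, had 1.5 and 1.21 FPKM in Th2 cells, 1.24 and 1.75 in Th17, 0 and 0 in Th1, and 0.0997 and 0 in naive cells. *Ccl6*, known from myeloid cells, was at 0.248 and 0.178 FPKM in naive cells, 0.554 and 0.305 in Th1 cells, 5.66 and 3.21 in Th2 cells, and 2.01 and 1.95 in Th17 cells. *Pf4*, *Ppbp*, *Ccl6* and *Ccl9* were all higher in both Th2 and both Th17 libraries than in the naive and Th1 libraries. *Ccl25*, known from thymus and gut, was at 1.98 and 2.15 FPKM in naive cells and at most 1.01 in any effector library. It was lower in each subset (limma, adjusted p = 0.00241 in Th1 cells, 0.00374 in Th2 and 0.00252 in Th17). Since *Ccl25* passed the filter through naive cells, these calls are not independent of its naive level. *Cxcl13*, the B cell follicle attractant, was under the filter at 1.13 and 0.908 FPKM in Th17 cells and was listed at 0 in the other 6 libraries. *Cxcl11*, which shares the receptor CXCR3 with *Cxcl10*, was at 1.11 and 0.768 FPKM in Th1 cells and at most 0.244 elsewhere, with 0 in both Th2 libraries. The summed FPKM of the B cell, dendritic cell and MHC class II lists was also higher in the Th2 and Th17 libraries than in the Th1 libraries, though not for every gene listed, and the part of such cells in these values was not tested.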
